A study of Mus musculus with 8 samples.

Results

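Cell cycle and mitosis genes were examined in GST (gastrocnemius) muscle RNA as a set of 45 genes named by function. The set was chosen with earlier results of these data known. Of these, 44 were among the 15433 genes of the deposited table, and Ccnb1, the gene of cyclin B1, was not analysed here. The samples were GST muscles of 6-month-old female mice, 4 WT and 4 STIM1+/D84G, with 1 library per mouse. STIM1+/D84G mice are heterozygous for a Stim1 allele with the D84G substitution in the EF hand, the domain by which STIM1 senses calcium stores, and the other allele is WT. The allele is carried in every cell of the body and not only in muscle fibers. The methods give age- and sex-matched C57BL/6 mice as WT controls, whereas the results of the paper speak of WT littermates. Which holds for these 8 mice is not stated. The labels give no treatment for either group. Values are normalized counts, that is, counts of reads that the authors had divided by the size factor of each library, and are not per length of the gene unless given per kb of exons.

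A cell enters the cycle when cyclin D with Cdk4 or Cdk6, and then cyclin E with Cdk2, phosphorylates the retinoblastoma protein and frees the E2F transcription factors. E2F target genes license and fire the replication origins and supply nucleotides, and the genes of later phases, many of them bound by the MuvB and NF-Y complexes, encode proteins that build the spindle and drive mitosis, several of which are degraded through the anaphase-promoting complex. Nuclei of adult muscle fibers have left the cell cycle, so that in muscle tissue division is known from satellite cells and their progeny and from immune, stromal and endothelial cells. In RNA of whole muscle, fewer cells of a type and less RNA per cell cannot be told apart.

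The WT libraries held 28698738 to 33661535 reads in listed genes and the STIM1+/D84G libraries 27481177 to 35018732. A single read was worth 1.02 to 1.21 normalized counts in WT and 0.783 to 0.964 in STIM1+/D84G libraries. All 10 muscle fiber markers were listed, with a sum of 8381000 to 8981000 normalized counts in WT and 4882000 to 5648000 in STIM1+/D84G libraries. Of the 10, 8 were called lower (limma, adjusted p under 0.05), beside 24.4% of all genes. The myosin gene Myh1 was called higher (log2 fold change 1.04), beside 25.0% of all genes, and Mylpf was not called. The column names carry a number whose meaning is not stated. WT replicates 1 and 2 and STIM1+/D84G replicate 1 share one number (the first column number), and the other 5 libraries share another (the second). No gene was removed for low values, and the smallest mean over the 8 libraries was 1.10. The lowest WT mean of a member was 2.27 for Bub1, above that smallest mean. The rule by which the authors listed genes is not known here. A cut on the mean would have kept each member on its WT libraries, but another rule could differ.

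More of the cell cycle genes were higher in STIM1+/D84G muscle than lower. Of the 44 genes, 25 rose, 5 fell and 14 did not pass the test (limma, adjusted p under 0.05), beside 25.0% of all 15433 genes called higher and 24.4% called lower. At 1.5-fold or more, 23 rose and 2 fell, beside 14.5% and 3.93% of all genes. The median log2 fold change was 0.86 over the 44 genes and 0.01 over all genes. The libraries of STIM1+/D84G muscle lay above all WT libraries in 22 of the 44 genes and below all of them in 5, beside 23.0% of all genes in each direction. With quantile normalization 12 of the 44 were called higher and 6 lower, and no count of all genes under it is given here. When each library was scaled to its sum over listed genes (total scaling) 34 were higher and 2 lower. That sum was 33536600 to 34589100 normalized counts in WT and 26080400 to 27436600 in STIM1+/D84G libraries, and total scaling called 9480 of all genes higher and 761 lower and brought the median log2 fold change of the whole table from 0.01 to 0.36.

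Mki67, which encodes the proliferation marker Ki-67, counted 66.3, 50.6, 26.0 and 19.4 in WT replicates 1 to 4 and 126, 92.5, 116 and 110.1 in STIM1+/D84G replicates 1 to 4. Its lowest STIM1+/D84G library was above its highest WT library, and the means differed 2.73-fold (log2 fold change 1.61 ± 0.33, adjusted p = 0.00202). Top2a, the topoisomerase that untangles replicated chromosomes, counted 52.6, 41.0, 17.3 and 5.12 in WT and 54.8, 60.3, 61.7 and 74.9 in STIM1+/D84G libraries. The highest WT library lay just below the lowest STIM1+/D84G library, and the mean was 2.17-fold higher (log2 fold change 1.57 ± 0.58, adjusted p = 0.0435). In both genes WT replicates 1 and 2 were well above WT replicates 3 and 4. Within the first column number the log2 ratio of the genotypes was 1.10 for Mki67 and 0.23 for Top2a, and within the second it was 2.22 and 2.54. The call of Top2a was lost without WT replicate 3 (adjusted p = 0.0871) and without STIM1+/D84G replicate 1, 2, 3 or 4 (0.0662, 0.0806, 0.0812 and 0.119), and with quantile normalization (0.0932), and without WT replicate 4 its log2 fold change was 0.90 (0.0456).

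**Figure D1:**
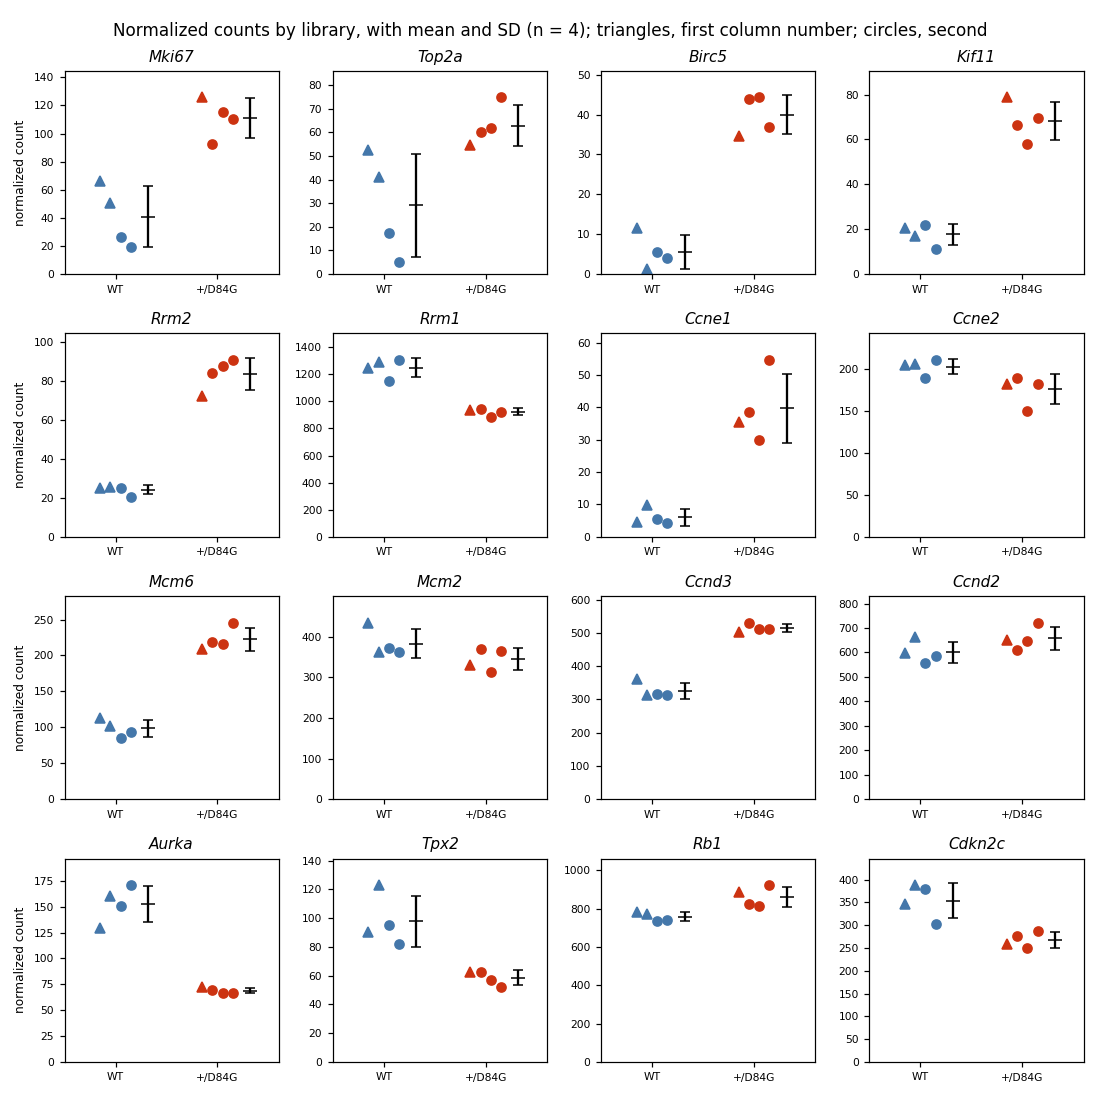
Normalized counts of 16 genes in each library (triangles, first column number, circles, second), with the mean and SD of each group (n = 4) beside the points and axes that start at 0. Related genes stand side by side: Rrm2 and Ccne1 are higher in all 4 STIM1+/D84G libraries than in any WT library, while Rrm1, Aurka and Tpx2 are lower in all 4.

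Promoter windows, 250 bases before to 50 bases after the start of a gene in RefSeq (GRCm38.p6), were found for 34 of the 44 genes and searched on both strands for motifs named after the factors of the cycle. The E2F motif, sought as TTTGGCG or TTTCGCG or TTTCCCG or TTTGCCG, was in 10 of the 34 windows (29.4%) and in 10.8% of the 10774 windows of listed genes. The cell cycle homology region (CHR), sought as TTTGAA or TTCGAA, was in 15 (44.1%) against 13.4%, and the NF-Y motif CCAAT in 23 (67.65%) against 38.3%. CHR and NF-Y motifs stood together in 15 windows (44.1%), against 5.71% of those of listed genes. Among the 21 windows of genes that rose, 6 held E2F, 8 CHR and 13 NF-Y motifs, among the 9 of genes that did not pass these were 4, 5 and 7, and among the 4 of genes that fell 0, 2 and 3. The windows of 3 genes with large rises, of both ribonucleotide reductase subunits, which moved in opposite directions, and of Aurka, which fell, are shown because the account below turns on them. They lie at chr11:117848987-117849286 (plus strand) for Birc5, chr7:38107441-38107740 (minus strand) for Ccne1, chr12:24708004-24708303 (plus strand) for Rrm2, chr7:102441445-102441744 (plus strand) for Rrm1, chr1:128359656-128359955 (minus strand) for Mcm6 and chr2:172370521-172370820 (minus strand) for Aurka. Each is written 5′ to 3′ on the strand of the gene, with the matches in capitals.
Birc5: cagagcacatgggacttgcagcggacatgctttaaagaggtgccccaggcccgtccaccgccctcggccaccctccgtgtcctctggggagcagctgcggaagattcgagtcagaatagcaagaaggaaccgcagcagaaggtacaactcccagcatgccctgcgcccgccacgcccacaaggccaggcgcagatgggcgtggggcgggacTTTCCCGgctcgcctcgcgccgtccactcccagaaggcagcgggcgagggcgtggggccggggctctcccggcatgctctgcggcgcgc
Ccne1: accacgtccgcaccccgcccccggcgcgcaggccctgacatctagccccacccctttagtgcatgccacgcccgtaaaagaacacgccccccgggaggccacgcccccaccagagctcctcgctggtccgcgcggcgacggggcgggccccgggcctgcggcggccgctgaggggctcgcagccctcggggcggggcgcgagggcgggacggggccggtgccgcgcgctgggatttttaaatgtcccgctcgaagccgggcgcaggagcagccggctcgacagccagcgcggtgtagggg
Rrm2: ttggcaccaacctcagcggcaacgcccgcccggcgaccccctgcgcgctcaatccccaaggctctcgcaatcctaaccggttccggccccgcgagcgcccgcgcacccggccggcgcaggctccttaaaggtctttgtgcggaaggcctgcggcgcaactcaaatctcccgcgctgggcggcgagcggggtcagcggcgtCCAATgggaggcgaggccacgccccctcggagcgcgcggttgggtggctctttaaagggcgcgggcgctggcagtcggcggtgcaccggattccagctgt
Rrm1: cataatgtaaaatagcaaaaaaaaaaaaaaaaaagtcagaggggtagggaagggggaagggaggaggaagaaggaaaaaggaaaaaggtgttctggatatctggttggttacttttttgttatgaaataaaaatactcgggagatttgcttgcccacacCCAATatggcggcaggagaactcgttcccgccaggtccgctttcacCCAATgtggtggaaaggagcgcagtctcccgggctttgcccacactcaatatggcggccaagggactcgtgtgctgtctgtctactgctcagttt
Mcm6: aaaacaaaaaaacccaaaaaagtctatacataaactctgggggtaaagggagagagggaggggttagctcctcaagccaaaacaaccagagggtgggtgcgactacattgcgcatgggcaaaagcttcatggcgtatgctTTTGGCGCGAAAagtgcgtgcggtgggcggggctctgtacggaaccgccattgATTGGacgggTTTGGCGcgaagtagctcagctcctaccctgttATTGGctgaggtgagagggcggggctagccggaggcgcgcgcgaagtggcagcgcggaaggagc
Aurka: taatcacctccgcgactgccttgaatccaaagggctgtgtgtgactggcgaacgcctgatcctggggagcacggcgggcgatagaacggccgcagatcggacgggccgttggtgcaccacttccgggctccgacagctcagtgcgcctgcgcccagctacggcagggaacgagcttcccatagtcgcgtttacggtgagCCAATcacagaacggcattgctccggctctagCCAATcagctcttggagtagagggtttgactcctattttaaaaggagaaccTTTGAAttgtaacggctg

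The window of Birc5 held 1 E2F match and that of Rrm2 1 NF-Y match, while that of Ccne1 held none of these letters. The window of Mcm6 held 3 E2F matches, 2 of which overlap on opposite strands, and 2 NF-Y matches. The window of Rrm1 held 2 NF-Y matches, and that of Aurka 2 NF-Y matches and 1 CHR match, the latter 33 bases after the start. A match is a stretch of letters and was not tested as a bound site.

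Among the genes of G1 phase, Ccne1, Cdk6 and Ccnd3 rose (37.5%, beside 25.0% of all genes) and 5 of the 8 did not pass. Ccne1, the gene of cyclin E1, counted 4.57, 9.64, 5.42 and 4.09 in WT and 35.5, 38.4, 29.9 and 54.6 in STIM1+/D84G libraries, without overlap, and was 6.68-fold higher (log2 fold change 2.77 ± 0.32, adjusted p = 4.29e-05). The related gene Ccne2, of cyclin E2, was lower in all 4 STIM1+/D84G libraries (203 ± 9.11 SD in WT and 176 ± 17.6 in STIM1+/D84G, n = 4) but did not pass (log2 fold change -0.21 ± 0.09, adjusted p = 0.0709). With quantile normalization Ccne2 was called lower (log2 fold change -0.36, adjusted p = 0.00821), and with total scaling its log2 fold change was 0.14 (adjusted p = 0.158). The count of Ccne1 per count of Ccne2 in the same library was 0.0194 to 0.0468 in WT and 0.195 to 0.299 in STIM1+/D84G muscle. Per kb of exons the mean level of Ccne1 stayed below that of Ccne2 in both groups, at 2.229 against 58.0 in WT and 14.9 against 50.4 in STIM1+/D84G.

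Cdk6, which encodes a kinase partner of the D cyclins, counted 27.4, 14.5, 17.3 and 14.3 in WT and 38.4, 39.2, 57.8 and 47.6 in STIM1+/D84G libraries, a rise of 2.49-fold without overlap (log2 fold change 1.34 ± 0.25, adjusted p = 0.000972). The other D cyclin kinase gene, Cdk4, was at 604 ± 52.4 (SD, n = 4) and 658 ± 29.5 and did not pass (adjusted p = 0.137), nor did Cdk2 at 111 ± 2.29 and 125 ± 13.01 (adjusted p = 0.157), although the groups of Cdk2 were just apart. Of the 3 D cyclin genes, Ccnd3 counted 362, 312, 317 and 313 in WT and 502, 531, 513 and 513 in STIM1+/D84G libraries. It rose 1.58-fold (log2 fold change 0.66 ± 0.06, adjusted p = 9.11e-06), and the STIM1+/D84G libraries were close to each other. Ccnd1 and Ccnd2 had log2 fold changes of 0.08 and 0.13 and did not pass (adjusted p = 0.554 and 0.126). The ratio of Ccnd3 to the sum of Ccnd1 and Ccnd2 within a library was 0.283 to 0.371 in WT and 0.446 to 0.543 in STIM1+/D84G muscle. These 4 genes depended on the setting. Total scaling called Cdk2, Cdk4, Ccnd1 and Ccnd2 higher (adjusted p = 0.000831, 6.89e-05, 0.00478 and 0.000171), scaling to all but the 50 most abundant genes called Cdk2, Cdk4 and Ccnd2 (adjusted p = 0.0299, 0.00987 and 0.0103), and the column number as a term called Cdk4 (adjusted p = 0.0286). Without WT replicate 2, Cdk4 and Ccnd2 passed (adjusted p = 0.0492 and 0.0451), and without WT replicate 3 the log2 fold change of Ccnd1 was -0.0176.

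Of the 8 genes that license origins and unwind DNA, Mcm6, Cdt1 and Mcm5 rose (37.5%, beside 25.0% of all genes) and 5 did not pass. Mcm6, a subunit of the MCM helicase ring, counted 113, 101, 85.7 and 94.1 in WT and 208, 219, 216 and 246 in STIM1+/D84G libraries, a 2.25-fold rise without overlap (log2 fold change 1.18 ± 0.10, adjusted p = 5.58e-06). The genes of its ring partners Mcm2, Mcm3, Mcm4 and Mcm7 had log2 fold changes of -0.15, 0.15, 0.06 and 0.13 with overlapping groups, and none of the 4 passed (adjusted p = 0.149, 0.329, 0.609 and 0.249). The fifth partner, Mcm5, counted 40.02, 36.2, 27.1 and 25.6 in WT and 52.8, 46.2, 48.2 and 56.4 in STIM1+/D84G libraries (log2 fold change 0.68 ± 0.18, adjusted p = 0.00902). The ratio of Mcm6 to the sum of the 5 other Mcm genes was 0.0976 to 0.109 in the WT libraries and 0.229 to 0.236 in the STIM1+/D84G libraries, a narrow range in each group. With total scaling Mcm3, Mcm4 and Mcm7 were called higher (adjusted p = 0.00515, 0.00364 and 0.00121) and the log2 fold change of Mcm2 turned to 0.20. With quantile normalization Mcm3, Mcm4 and Mcm7 turned to -0.0577, -0.0916 and -0.0074, and the call of Mcm5 was lost (adjusted p = 0.157).

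Cdt1, which loads the MCM ring at origins, counted 16.01, 19.3, 11.9 and 15.4 in WT and 30.7, 23.5, 26.0 and 36.1 in STIM1+/D84G libraries, 1.86-fold higher without overlap (log2 fold change 0.89 ± 0.23, adjusted p = 0.00773). Its loading partner Cdc6 varied among the WT libraries from 4.34 to 20.6, a span that held all 4 STIM1+/D84G libraries, and did not pass (log2 fold change 0.32 ± 0.47, adjusted p = 0.605). With quantile normalization the call of Cdt1 was lost (adjusted p = 0.119).

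The genes of the 2 subunits of ribonucleotide reductase, the enzyme that makes deoxynucleotides, went in opposite directions. Rrm2, the small subunit whose level is known to follow S phase, counted 25.2, 25.3, 24.9 and 20.5 in WT and 72.1, 83.8, 87.7 and 90.7 in STIM1+/D84G libraries, a 3.49-fold rise (log2 fold change 1.80 ± 0.14, adjusted p = 3.41e-06). Rrm1, the large subunit, counted 1249.7, 1291, 1154 and 1308 in WT and 936, 947, 888 and 921 in STIM1+/D84G libraries, a fall of 1.36-fold (log2 fold change -0.44 ± 0.05, adjusted p = 3.24e-05). Neither gene had overlapping groups. The ratio of Rrm2 to Rrm1 was 0.0156 to 0.0216 in the WT libraries and 0.0770 to 0.0988 in the STIM1+/D84G libraries. Per kb of exons Rrm1 remained the more abundant, at 114 against 8.65 for Rrm2 in WT and 83.8 against 30.2 in STIM1+/D84G. The fall of Rrm1 was not called with total scaling (log2 fold change -0.09, adjusted p = 0.0980).

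Tyms, thymidylate synthase, counted 13.7, 18.1, 16.3 and 11.3 in WT and 25.9, 25.1, 25.1 and 32.6 in STIM1+/D84G libraries and rose 1.83-fold without overlap (log2 fold change 0.88 ± 0.22, adjusted p = 0.00714). Pcna, the sliding clamp of the DNA polymerases, was at 229.8 ± 10.7 (SD, n = 4) in WT and 263 ± 10.2 in STIM1+/D84G muscle and rose by a small amount (log2 fold change 0.19 ± 0.06, adjusted p = 0.0289), its groups just apart. Pcna lost its call without WT replicate 1 or 2 (adjusted p = 0.0686 and 0.0680), without STIM1+/D84G replicate 1, 3 or 4 (0.0594, 0.0696 and 0.0692), with DESeq2 (0.103) and with quantile normalization (0.278). Quantile normalization also ended the call of Tyms (adjusted p = 0.0859).

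Ccna2, the gene of the S and G2 phase cyclin A2, counted 14.9, 10.8, 7.59 and 10.2 in WT and 35.5, 29.0, 24.1 and 40.5 in STIM1+/D84G libraries, 2.97-fold higher without overlap (log2 fold change 1.57 ± 0.27, adjusted p = 0.000629). Cdk1, the kinase that drives mitosis with the B cyclins, counted 12.6, 4.82, 3.25 and 5.12 in WT and 12.5, 13.3, 11.6 and 16.7 in STIM1+/D84G libraries. It rose 2.10-fold (adjusted p = 0.0307), but WT replicate 1 lay within the range of the STIM1+/D84G libraries. Ccnb2, of cyclin B2, had a mean of 6.25 ± 4.52 (SD, n = 4) in WT and 13.7 ± 6.01 in STIM1+/D84G libraries and missed the threshold (log2 fold change 1.30 ± 0.54, adjusted p = 0.0674), with WT replicate 1 again among the STIM1+/D84G values. Without WT replicate 1 Ccnb2 passed (adjusted p = 0.0170). Cdk1 lost its call without WT replicate 2, 3 or 4 (adjusted p = 0.0666, 0.0650 and 0.0612), without any 1 STIM1+/D84G library (0.0516 to 0.0782), with DESeq2 (0.0783) and with quantile normalization (0.224).

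Of the mitotic kinases and checkpoint genes 3 were higher (37.5%), 2 lower (25.0%) and 3 did not pass. Of all genes 25.0% were called higher and 24.4% lower, so the share of lower genes is near that of all genes. Birc5, which encodes survivin, a subunit of the chromosomal passenger complex, counted 11.4, 1.21, 5.42 and 4.09 in WT and 34.6, 43.9, 44.3 and 37.0 in STIM1+/D84G libraries, a 7.21-fold rise (log2 fold change 3.20 ± 0.54, adjusted p = 0.000569). Its fold change was the highest of the 44 genes and rests on low WT counts, with 1 read in WT replicate 2. The log2 fold change was 2.90 with a pseudocount of 1, 2.63 without WT replicate 2 and 2.55 with quantile normalization, each with its call kept. Aurkb, the kinase of the same complex, had means of 7.66 ± 3.61 (SD, n = 4) and 13.01 ± 3.40 and did not pass (log2 fold change 0.84 ± 0.39, adjusted p = 0.1003). It passed without WT replicate 2 (adjusted p = 0.0450) and with the column number as a term (0.0483).

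Aurka, the related kinase of centrosomes and spindle poles, fell. It counted 129, 160.3, 151 and 171 in WT and 72.1, 69.7, 66.5 and 67.0 in STIM1+/D84G libraries, 2.22-fold lower without overlap (log2 fold change -1.14 ± 0.11, adjusted p = 9.10e-06), and the STIM1+/D84G libraries were close to each other. The gene of its activator Tpx2, a spindle assembly factor, counted 90.3, 123, 95.4 and 81.9 in WT and 62.4, 62.7, 56.9 and 52.0 in STIM1+/D84G libraries and also fell, by 1.67-fold without overlap (log2 fold change -0.73 ± 0.14, adjusted p = 0.00144). The ratio of Aurka to Aurkb in a library was 13.3 to 34.8 in WT and 3.80 to 7.42 in STIM1+/D84G muscle. In WT muscle Aurka stood at 60.4 and Tpx2 at 20.9 normalized counts per kb, above most of the mitotic genes, such as Birc5 at 1.63, Kif11 at 2.36 and Plk1 at 2.94.

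Cdc20, which activates the anaphase-promoting complex, counted 8.004, 9.64, 3.25 and 7.16 in WT and 13.4, 14.9, 14.5 and 12.3 in STIM1+/D84G libraries and rose 1.96-fold (log2 fold change 1.06 ± 0.37, adjusted p = 0.0333). Bub1b, the checkpoint protein BubR1 that restrains Cdc20, counted 24.0, 16.9, 15.2 and 20.5 in WT and 45.2, 40.7, 20.2 and 32.6 in STIM1+/D84G libraries (log2 fold change 0.81 ± 0.27, adjusted p = 0.0287), with STIM1+/D84G replicate 3 within the WT range. Bub1, its partner at the kinetochore, had no read in WT replicate 4 and 2.89 to 8.81 in STIM1+/D84G libraries and did not pass (adjusted p = 0.103), and Plk1, the polo kinase of mitotic entry, did not either (adjusted p = 0.296). Without WT replicate 1 Bub1 passed (adjusted p = 0.0377). The call of Cdc20 was lost with the replicate block (adjusted p = 0.0502), without WT replicate 3 or 4 (0.0501 in both), without any 1 STIM1+/D84G library (0.0516 to 0.0776), with DESeq2 (0.0783) and with quantile normalization (0.289). Bub1b lost it without WT replicate 2 or 3 (0.0656 and 0.0677), without STIM1+/D84G replicate 1, 2 or 4 (0.0848, 0.0837 and 0.0651) and with quantile normalization (0.239).

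Ube2c, the ubiquitin-conjugating enzyme of the anaphase-promoting complex, had the highest level per kb of the 44 genes, 284 in WT, and fell. It counted 815, 757, 584 and 794 in WT and 504, 438, 598 and 556 in STIM1+/D84G libraries, 1.41-fold lower (log2 fold change -0.49 ± 0.12, adjusted p = 0.00494), with WT replicate 3 below STIM1+/D84G replicate 3. In the GENCODE annotation 592 bases, 22.8% of its exon bases, overlap exons on the opposite strand of Tnnc2, the fast troponin C gene, which had a mean of 242500 normalized counts over the 8 libraries and fell as well (log2 fold change -0.76, adjusted p = 2.17e-05). Ube2c amounted to 0.242% ± 0.0327 (SD, n = 4) of Tnnc2 in WT and 0.294% ± 0.0555 in STIM1+/D84G libraries, with overlapping groups. Whether the counting used strand is not stated, so the reads of the 2 genes cannot be told apart here. The fall of Ube2c was not called with total scaling (adjusted p = 0.320).

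Of the 7 genes of spindle, kinetochore and cytokinesis, 6 rose and Tpx2 fell, beside 25.0% of all genes called higher and 24.4% lower. Kif11, the motor that separates spindle poles, counted 20.6, 16.9, 21.7 and 11.3 in WT and 78.8, 66.6, 57.8 and 69.6 in STIM1+/D84G libraries, 3.88-fold higher (log2 fold change 1.98 ± 0.22, adjusted p = 3.22e-05). Prc1, which bundles midzone microtubules, counted 22.9, 13.3, 9.76 and 3.07 in WT and 34.6, 45.4, 44.3 and 41.4 in STIM1+/D84G libraries, 3.39-fold higher (log2 fold change 2.06 ± 0.49, adjusted p = 0.00489). Both genes were without overlap, and the spread was wider in WT for Prc1. The ratio of Tpx2 to Kif11 was 4.39 to 7.29 in the WT libraries and 0.747 to 0.983 in the STIM1+/D84G libraries, so that Tpx2 counted more than Kif11 in every WT library and less in every STIM1+/D84G library.

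Cenpe, a kinetochore motor, counted 10.3, 4.82, 9.76 and 5.12 in WT and 20.2, 18.0, 13.5 and 14.98 in STIM1+/D84G libraries (log2 fold change 1.21 ± 0.34, adjusted p = 0.0130). Cenpf, a kinetochore protein of late G2 and mitosis, counted 12.6, 9.64, 5.42 and 3.07 in WT and 26.9, 18.0, 21.2 and 22.9 in STIM1+/D84G libraries (log2 fold change 1.70 ± 0.42, adjusted p = 0.00587). Nusap1, which binds spindle microtubules, counted 20.6, 14.5, 8.67 and 8.19 in WT and 25.9, 21.2, 28.9 and 28.2 in STIM1+/D84G libraries (log2 fold change 1.09 ± 0.31, adjusted p = 0.0135). The groups did not overlap in these 3 genes, and WT replicates 3 and 4 were the lowest in Cenpf and Nusap1. Kif20a, a motor of cytokinesis, counted 10.3, 33.7, 20.6 and 15.4 in WT and 32.7, 37.6, 29.9 and 42.3 in STIM1+/D84G libraries (log2 fold change 0.95 ± 0.32, adjusted p = 0.0302), with WT replicate 2 among the STIM1+/D84G values. In the annotation 29.3% of the exon bases of Kif20a overlap Cdc23, which fell slightly (log2 fold change -0.20, adjusted p = 0.00936). Over all libraries Cdc23 had a mean of 573.1 and Kif20a of 27.8, and the part of Cdc23 in the counts of Kif20a was not tested. Kif20a lost its call without WT replicate 1 or 4 (adjusted p = 0.0673 and 0.0700), without STIM1+/D84G replicate 2 or 4 (0.0698 and 0.0926) and with quantile normalization (0.170), which also ended those of Cenpe (0.0917) and Nusap1 (0.101).

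Among the regulators, E2f1, an activator of S phase genes, counted 21.7, 8.44, 13.01 and 24.6 in WT and 32.7, 34.5, 31.8 and 44.1 in STIM1+/D84G libraries and rose 2.11-fold without overlap (log2 fold change 1.18 ± 0.32, adjusted p = 0.0104). Foxm1, which activates genes of G2 and mitosis, counted 18.3, 7.23, 6.51 and 9.21 in WT and 12.5, 18.8, 23.1 and 22.03 in STIM1+/D84G libraries (log2 fold change 0.97 ± 0.37, adjusted p = 0.0467), with overlap. Rb1, the retinoblastoma protein that holds E2F in check, was at 758 ± 22.1 (SD, n = 4) in WT and 861 ± 53.1 in STIM1+/D84G muscle, a small rise without overlap (log2 fold change 0.18 ± 0.05, adjusted p = 0.0140). Cdkn2c, the inhibitor p18 of Cdk4 and Cdk6, counted 346, 388, 381 and 302 in WT and 258, 277, 249.7 and 287 in STIM1+/D84G libraries and fell 1.32-fold without overlap (log2 fold change -0.40 ± 0.09, adjusted p = 0.00310). The call of Cdkn2c ended with total scaling (log2 fold change -0.05, adjusted p = 0.657), and that of E2f1 with quantile normalization (adjusted p = 0.0608). Foxm1 was the least stable call: it was lost with the replicate block (adjusted p = 0.0837), edgeR (0.0643), DESeq2 (0.0897), the column number as a term (0.0605) and quantile normalization (0.268), and without WT replicate 2, 3 or 4 or STIM1+/D84G replicate 2, 3 or 4 (0.0813 to 0.120).

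The members at lower levels were mostly higher in STIM1+/D84G muscle, and the members that fell stood at higher levels. The genes whose mean over the 8 libraries was below 42.2, the median of the 44, numbered 22, of which 17 rose, 0 fell and 5 did not pass, with a median log2 fold change of 1.14. Of the 22 above it, 8 rose, 5 fell and 9 did not pass, with a median of 0.13. Over all genes with a mean below 42.2, 957 of 3703 rose and 105 fell, with a median of 0.42, and above it 2902 of 11730 rose and 3660 fell, with a median of -0.04. Genes of the table at low levels in WT may be listed only through their STIM1+/D84G libraries, so these counts over all genes lean to rises. In WT muscle the levels per kb of exons ran from 0.497 for Cenpf and 0.522 for Bub1 to 126 for Rb1, 132 for Cdkn2c, 186 for Cdk4 and 284 for Ube2c.

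**Figure D2:**
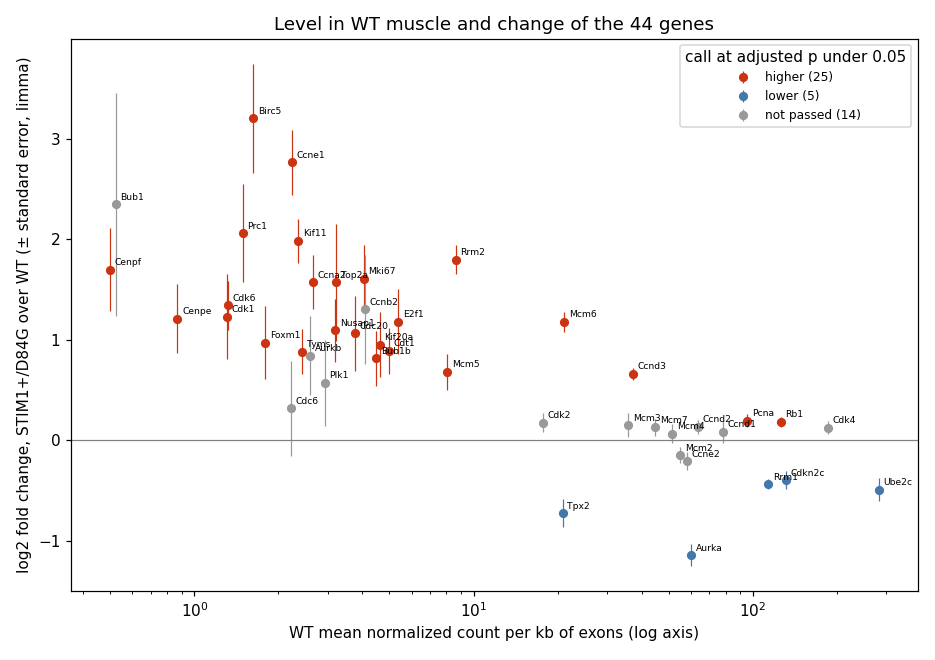
Log2 fold change of each of the 44 genes (STIM1+/D84G over WT, limma, bars are standard errors) against its mean normalized count per kb of exons in WT muscle, on a log axis. The 5 genes called lower (blue) stand at 20.9 normalized counts per kb (Tpx2) or above, and the largest rises among called genes (red) are those of Birc5 at 1.63 and Ccne1 at 2.229.

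The libraries of 1 genotype differed among themselves. WT replicate 1 was the highest WT library in 24 of the 44 genes and WT replicate 2 in 12, while WT replicates 3 and 4 were the lowest in 18 each. Over the 22 genes with the lower means, the median log2 ratio to the WT mean was 0.47, -0.03, -0.35 and -0.39 in WT replicates 1 to 4 and 0.96, 1.03, 0.87 and 1.20 in STIM1+/D84G replicates 1 to 4. Each STIM1+/D84G library was thus above every WT library in this median, and STIM1+/D84G replicate 4 was the highest. WT replicates 1 and 2 bear the first column number, with STIM1+/D84G replicate 1 as the only library of its genotype. Between libraries of that number the sign of the difference was as over all 8 libraries in 38 of the 44 genes, with a median log2 ratio of 0.49, and between those of the second in 44 of 44, with a median of 0.98. Of the 25 genes called higher, 24 were higher within the first and 25 within the second, the exception being Foxm1 at -0.03, and the 5 called lower were lower within both. In the 22 genes whose STIM1+/D84G libraries all lay above WT, and the 5 with all below, the sign within each number was fixed in advance. The agreement is thus no separate check on the column number.

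**Figure D3:**
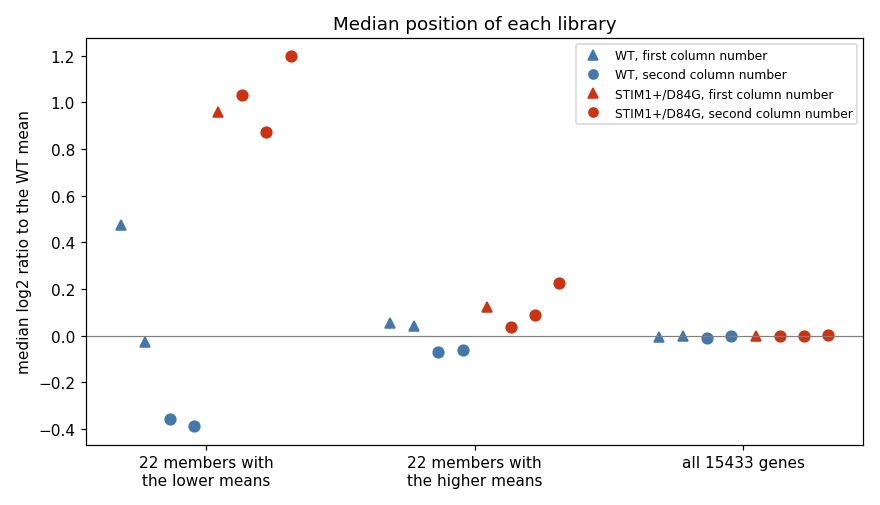
Median log2 ratio of each library to the WT mean over the 22 members with the lower means, the 22 with the higher means and all 15433 genes, by genotype (color) and column number (shape). In the first group the WT libraries run from -0.39 to 0.47 and the STIM1+/D84G libraries from 0.87 to 1.20. Over all genes every library is near 0, which division by size factors can set by itself, so that position is no separate contrast.

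Further genes of the cycle, outside the 44, were counted in 7 lists, whose counts stand beside 25.0% of all genes higher and 24.4% lower. Of 167 listed genes 39 rose (23.4%) and 36 fell (21.6%), shares near those of all genes, and without STIM1+/D84G replicate 4 25 rose. Of the further mitosis genes 20 of 49 rose and 2 fell, with a median log2 fold change of 0.71. The spindle motor gene Kif4 rose from 2.03 ± 2.08 (SD, n = 4) to 9.36 ± 3.78 (log2 fold change 3.04, adjusted p = 0.0340), and so did Kif15, of another motor (log2 fold change 2.10, adjusted p = 0.0203), and Ckap2, of a spindle-bound protein (log2 fold change 2.07, adjusted p = 0.00180). Kif4 and Kif15 had overlapping groups and only 7 and 10 reads over the WT libraries. Their log2 ratios were 0.42 and 0.31 within the first column number and 4.165 and 3.35 within the second. Lmnb1, the gene of lamin B1, fell from 290.4 ± 42.6 to 218 ± 5.76 (log2 fold change -0.40, adjusted p = 0.00566).

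Of 40 further replication genes 6 rose and 7 fell (median 0.15). Orc1, the origin recognition subunit whose level is known to change through the cycle, rose from 1.97 ± 0.640 (SD, n = 4) to 6.75 ± 2.31 (log2 fold change 1.73, adjusted p = 0.0186), and Gins2 of the GINS helicase complex and Prim1 of primase rose as well (log2 fold changes 1.16 and 0.74, adjusted p = 0.0262 and 0.0118). Orc3, another origin recognition subunit, fell from 999 ± 43.9 to 737 ± 36.2 (log2 fold change -0.44, adjusted p = 4.26e-05).

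Of the 6 further genes of inhibitors of the cyclin-dependent kinases 4 rose, 1 fell and 1 did not pass, beside 25.0% and 24.4% of all genes, while the member Cdkn2c fell. Cdkn1a, of p21, counted 558, 407, 639.7 and 389 in WT and 1437, 1433, 1523 and 1559 in STIM1+/D84G libraries (log2 fold change 1.61 ± 0.14, adjusted p = 5.15e-06). Cdkn1c, of p57, counted 499, 442, 381 and 412 in WT and 888, 1032, 987 and 971 in STIM1+/D84G libraries (log2 fold change 1.17 ± 0.08, adjusted p = 1.40e-06). Both were thus higher in every STIM1+/D84G library than in any WT library. Cdkn2a, the locus of p16 and p19Arf, had 4 reads over the 4 WT libraries and 49 over the 4 STIM1+/D84G libraries. Its WT mean of 1.07 is below 1.10, the lowest mean over the 8 libraries in the table, so it is listed only through its STIM1+/D84G libraries and its call, 1 of the 4, is not read as a result. Cdkn2d, of p19Ink4d, rose slightly (log2 fold change 0.24 ± 0.09, adjusted p = 0.0431), Cdkn1b, of p27, fell slightly (log2 fold change -0.20 ± 0.05, adjusted p = 0.0102) and Cdkn2b, of p15, did not pass (adjusted p = 0.897).

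Among 21 further genes of the E2F, pocket protein and MuvB families 4 rose and 9 fell (median -0.06). E2f2, another activator, rose from 136 ± 25.3 (SD, n = 4) to 334 ± 25.9 (log2 fold change 1.31, adjusted p = 9.35e-06), and E2f8, an atypical repressor E2F, from 6.55 ± 2.29 to 30.0 ± 4.72 (log2 fold change 2.24, adjusted p = 0.000161). Mybl1 rose too (log2 fold change 1.04, adjusted p = 0.0163), and E2f6, a repressor, fell from 4425 ± 164 to 2987 ± 92.5 (log2 fold change -0.57, adjusted p = 1.64e-06). Of 20 genes of the anaphase-promoting complex and SCF, 1 rose and 8 fell (median -0.09), led by Anapc5, a scaffold subunit of the complex, which fell from 21456 ± 845 to 11976 ± 706 (log2 fold change -0.84, adjusted p = 5.77e-07), with Fbxw7, of an F-box protein of SCF, and Anapc13 next (log2 fold changes -0.50 and -0.33, adjusted p = 0.000263 and 0.000175), while Anapc7 rose slightly (log2 fold change 0.16, adjusted p = 0.0173). The kinases and phosphatases that act on the cyclin-dependent kinases gave 1 higher, Cdc25b (log2 fold change 0.52, adjusted p = 0.0117), and 2 lower of 9, Cdk7 and Mnat1 of the activating kinase (log2 fold changes -0.31 and -0.20, adjusted p = 0.00195 and 0.0170).

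The 22 genes of cyclins and kinases that do not drive the cycle were counted for contrast. Of these 3 rose and 7 fell (median -0.03). Ccnk, of cyclin K, a partner of transcriptional kinases, fell from 6279 ± 448 (SD, n = 4) to 2585 ± 144 (log2 fold change -1.28, adjusted p = 1.19e-07), and Cdk18 and Ccng1 fell too (log2 fold changes -0.68 and -0.40, adjusted p = 0.000567 and 4.68e-05). Cdk14 rose (log2 fold change 0.67, adjusted p = 0.000572).

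**Figure D4:**
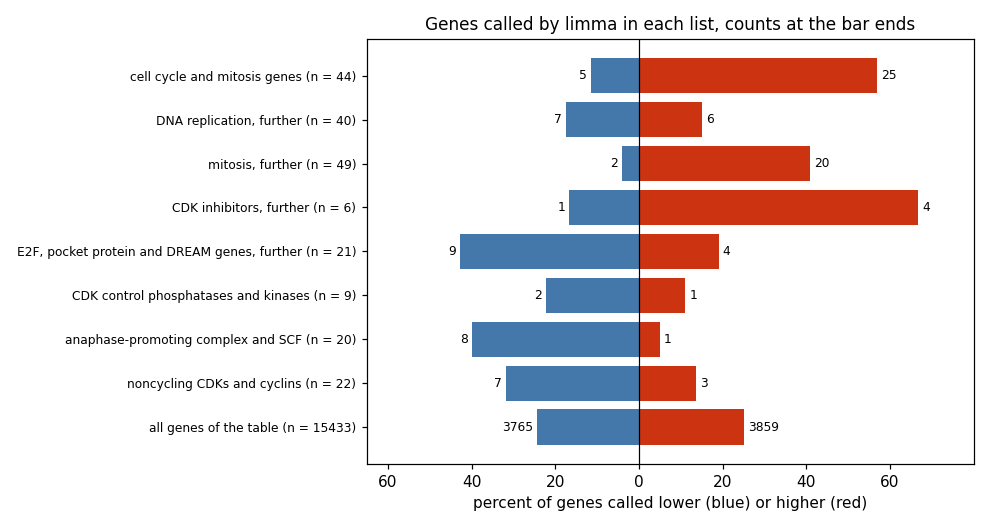
Share of genes called higher (red, right) and lower (blue, left) in STIM1+/D84G muscle in each list and in the whole table, with the number of genes at the bar ends. The 44 cell cycle and mitosis genes have 25 higher and 5 lower and the further mitosis genes 20 and 2, whereas the E2F, anaphase-promoting complex and noncycling lists have more genes lower than higher.

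Markers of macrophages, fibroblasts and some of satellite cells and myoblasts were higher in STIM1+/D84G muscle, and no endothelial or B and plasma cell marker was called higher. The counts of markers stand beside 25.0% of all genes called higher, 24.4% called lower and 23.0% without overlap in each direction. All 14 macrophage and monocyte markers rose without overlap, with a summed level of 2720 to 3424 normalized counts in WT and 7569 to 12870 in STIM1+/D84G libraries, although Ly6c2, at 3 reads over the WT libraries, is listed only through its STIM1+/D84G libraries. Of the satellite cell and myoblast markers 9 were listed, of which 5 rose (Des, Myf5, Myog, Vcam1 and Tmem8c) and 0 fell. Pax7, Myod1, Cdh15 and Calcr did not pass (log2 fold changes 0.13, -0.38, -0.15 and -0.63). The sums over the 9, of 106100 to 114100 and 135900 to 145700, were nearly all from Des. The paper describes desmin at the Z-disc of muscle fibers, so these sums are not read as a measure of satellite cells or myoblasts. Fibroblast and fibro-adipogenic markers rose in 8 of 10, with sums of 27590 to 37780 and 49560 to 61250. Endothelial markers rose in 0 of 8 and fell in 2, and that share of 25.0% lower is near the share of all genes. T and NK cell markers rose in 3 of 5 listed with sums of 4.82 to 31.4 and 26.0 to 45.8. B and plasma cell markers rose in 0 of 3, erythroid markers in 2 of 3, and the 1 neutrophil marker listed, Retnlg, rose. The 3 T and NK cell markers called (Cd3e, Cd3g and Klrb1c) have WT means below 1.10, so that they too are listed only through STIM1+/D84G libraries, and nothing is read from their count. No listed marker was at 0 in all libraries of a group, and 5 of the 6 neutrophil and 4 of the 9 T and NK cell markers were not analysed here. The part of any of these cells in the values of the cell cycle genes was not tested.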

How the data were processed

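RNA-Seq values of 8 GST muscles, 4 WT and 4 STIM1+/D84G at 6 months, were analysed. The signal values deposited by the authors are counts of reads over a size factor of the library (called normalized counts). The name of the table speaks of RPKM, yet gene length does not enter, since multiplying each library by 1 constant turned 100% of values into whole reads within 0.01. The labels give mm10 as the build, and the aligner, read counter, strand setting and annotation are not given in the sources used here. A stranded mRNA kit is given in the methods, a SMARTer kit in the labels. Columns of the authors' own comparison (fold, log2 fold, standard error, statistic, p and adjusted p) were not used.

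All 15433 genes were fitted with limma 3.58.1 (lmFit, eBayes with trend, R 4.3.3) on log2 values after adding 0.1 to the normalized count, with Benjamini-Hochberg adjustment over all genes and a threshold of 0.05. Fold changes are STIM1+/D84G over WT, and log2 fold changes carry standard errors and, for low genes, can lie above or below the log2 ratio of the group means. The procedure was run on simulated counts in which few genes changed, rising and falling in even numbers. Far more genes were called in these data, so that run cannot vouch for the calls or the choice of scaling. The 45 genes, the further lists, the motifs and the tests were chosen with earlier results of these data known, so counts stand beside those of all genes and no list was tested. Members passing at 1.5-fold, and all that fell, are given library by library, and up to 4 passing genes per further list are named in order of their change, the top gene either way included, besides any inhibitor of the cyclin-dependent kinases. The ratios of members were chosen after their values were seen and are not tested.

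Alternatives were pseudocounts of 1 and 0.01, a mean of at least 10, 3 other scalings, edgeR 4.0.16 and DESeq2 1.42.0 on recovered reads, the replicate block, the number in the column names as a term, and leaving out each library. Replicate numbers are shared by the groups, and the replicate block took them as pairs, while the main fit did not. After removal of group means same-numbered libraries correlated at 0.213, 0.161, 0.150 and 0.123 over the 10155 genes at a mean of 100 or more. STIM1+/D84G replicates 1, 3 and 4 correlated more with WT replicates 2, 4 and 3 (0.371, 0.222 and 0.188), which share their column numbers. The correlations thus do not establish the pairs. GENCODE vM21 (15289 genes matched by identifier, the 44 members among them) gave exon lengths and overlaps, and RefSeq the promoter windows. P-values set the difference of the genotypes against the spread between mice of a group, which limma moderates over all genes.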

Additional observations from a re-analysis of the deposited data

Results flagged for a closer look

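In 4 of the 88 groups of 4 libraries (44 genes in each genotype), 1 library stood apart from the other 3 by more than Dixon's critical value for 4 samples, and chance flags about 1 in 20 groups. Ccnd3 was at 362 in WT replicate 1 and 312 to 317 in the other WT libraries. Mcm2 was at 434 in WT replicate 1 and 361 to 371 in the others. Rrm2 was at 20.5 in WT replicate 4 and 24.9 to 25.3 in the others. Tyms was at 32.6 in STIM1+/D84G replicate 4 and 25.1 to 25.9 in the others. Leaving out these libraries ended the call of none of Ccnd3, Rrm2 and Tyms, and Mcm2 was not called with or without WT replicate 1.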

How the results depend on the processing

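Pseudocounts of 1 and 0.01 left 25 members higher and 5 lower, a mean of at least 10 gave 24 and 5, edgeR 24 and 5, DESeq2 21 and 5 and the number in the column names as a term 26 and 5. With the replicate block 23 were higher and 5 lower, and beside the calls of Cdc20 and Foxm1 it changed no call of a member. Total scaling gave 34 higher and 2 lower, a median log2 fold change of 1.21, 9480 of all genes higher and 761 lower, 116 further cell cycle genes higher and 4 lower, and turned Ccne2 to 0.14 and Mcm2 to 0.20. Scaling to all but the 50 most abundant genes, under which the median of the whole table was 0.14, gave 29 members higher and 5 lower. Of all genes it called 5318 higher and 2245 lower, and of the further genes 58 higher and 21 lower. Quantile normalization gave 12 and 6, a median of 0.48 beside -0.068 over all genes, and 17 further genes higher. It turned Cdk2 to -0.0748, Cdc6 to -0.188, Mcm3 to -0.0577, Mcm4 to -0.0916, Mcm7 to -0.0074 and Plk1 to -0.0705. Counts of all genes are given here only for total scaling, the scaling without the 50 most abundant genes and the omissions of 1 library. Member counts under the other alternatives thus stand without a share of all genes. With 1 library left out, Ccnd1 ranged from -0.0176 (without WT replicate 3) to 0.172 and Cdc6 from -0.0689 (without WT replicate 3) to 0.671. Over the 8 omissions of 1 library, 18 to 25 members were higher and 5 lower, with medians of 0.72 to 0.92, and of all genes 3326 to 3822 were higher and 3321 to 3596 lower. Of the further genes 25 to 43 were higher and 30 to 38 lower. Under all of these settings 12 of the 25 members called higher (Mki67, Cdk6, Ccna2, Ccnd3, Ccne1, Mcm6, Rrm2, Kif11, Birc5, Prc1, Cenpf and Rb1) and 2 of the 5 called lower (Aurka and Tpx2) kept their calls. The cause of these changes was not tested. With 4 mice a group and 1 read worth about 1 normalized count, genes such as Bub1, Plk1 and Cdk1 rest on few reads, and a member that did not pass is not shown to be the same in both genotypes.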

Other observations

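Exons of further members overlap those of a neighbor on the opposite strand in GENCODE vM21, by 23.4% of exon bases for Ccnd1 (LTO1), 19.7% for Cdk4 (Tspan31), 17.4% for Ccne2 (Ints8), 12.5% for Ccna2 (Exosc9) and 11.1% for Prc1 (Rccd1). The mean over the 8 libraries was 479.5 for Exosc9 against 21.59 for Ccna2, and 207.9 for Rccd1 against 26.84 for Prc1. Ints8 rose slightly (log2 fold change 0.22, adjusted p = 0.0113), while Ccne2 was lower in STIM1+/D84G libraries, and Tspan31 did not pass (0.06, adjusted p = 0.344). The part of these neighbors in the counts of the members was not tested.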
